A study of Mus musculus with 8 samples.

Results

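The genes described here encode the machinery that reads mRNA into protein: the translation factors, taken as every gene whose symbol begins with Eif or Eef followed by a digit, and the aminoacyl-tRNA synthetases, taken as every symbol made of 1 capital letter and "ars", with or without a final 2. The rule took 103 of the 31053 genes in the deposited feature tables, 69 translation factors and 34 synthetases, and used no measured value. The 34 synthetases split evenly by symbol into 17 without a final 2, named cytosolic here, and 17 with it, named mitochondrial. These names follow the symbol, and an enzyme named cytosolic here may also serve mitochondria. Of the 69 factors, 65 held enough counts to be tested. Eif2s3y and Eif4ebp3 had no UMI in any library, and Eif4e1b and Eif2c5 had 2 UMIs each. Over all libraries, no UMI allows a level of up to 0.0142 CPM (the counts-per-million level, in UMIs). Eif2s3y lies on chromosome Y, and the study found female sex chromosomes in this line. Eif4ebp3 overlaps AC115631.1 on the same strand, where reads that fit both genes are not counted, so that bound may not hold for it. The 34 synthetases were all tested. The symbol does not fix the function: Eif1ad, Eif2c5 and Eef1e1 (the last a scaffold protein of the multi-synthetase complex) carry a factor's name only and were kept as a group of their own.

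Translation starts when eIF2 brings the initiator tRNA to the small ribosomal subunit, eIF3 holds that subunit together with the other factors, and the eIF4 proteins bind the mRNA cap and unwind the leader. Elongation then depends on eEF1A, which delivers charged tRNAs, its exchange factor eEF1B, the translocase eEF2 and eIF5A, which helps ribosomes through difficult peptide bonds. Each synthetase attaches 1 amino acid to its tRNAs. When charged tRNA runs short, the kinase GCN2 (Eif2ak4) phosphorylates eIF2, and the transcription factor ATF4 then raises genes of amino acid supply, several cytosolic synthetases among them.

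SN4741 is a mouse neural precursor line, reported as a clone from embryonic substantia nigra, that carries a temperature-sensitive SV40 large T antigen under a tyrosine hydroxylase promoter. The study also found its karyotype to be unstable. Wild-type cells of this line were profiled by droplet single-cell RNA-seq (10x Genomics 3' V3) in 4 libraries grown at the permissive temperature (37 °C, 10% serum) and 4 moved to the non-permissive temperature (39 °C, 0.5% serum) for 48 h to make them differentiate. Temperature and serum changed together, so their parts in any difference cannot be told apart. Nothing in the labels says that the 4 libraries of a temperature came from separate cultures, so p-values measure the spread between these libraries, which may be technical.

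The study's cell filter left 18351 of 19125 cells (8550 grown at 37 °C, 9801 at 39 °C), and each library then held between 17166686 and 29633818 UMIs. Between 21.05% and 28.55% of cells were assigned to G1 at 37 °C, against 83% to 85.38% at 39 °C, so sums over all cells compare mixtures of phases. For that reason each comparison was also made among G1 cells alone. Library 1 at 39 °C stood apart, with 985 cells and the highest median depth (16665 UMIs per cell against 6676 to 9886 in the other 39 °C libraries). The neural precursor markers Nes, Vim and Sox2 were present, at 467, 5400 and 55.4 CPM at 37 °C and 108, 5170 and 76.5 CPM at 39 °C. Nes fell (log2 -2.11), Sox2 (0.47) and Vim (-0.06) were not called, and Sox1, Pax6, Fabp7 and Hes5 had at most 6 UMIs in all. Msi1, with 12 UMIs in all, was called higher (2.23, adjusted p = 0.0286 by the edgeR test described below). In G1 cells Sox2 was called higher (0.53) and Nes lower (-1.95). Of 7 mesenchymal markers 4 fell, among them Col1a1 and Acta2, and their summed level was 1980 to 2020 CPM at 37 °C and 852 to 879 at 39 °C. The part of these marker differences in the results below was not tested.

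The synthetases together took 0.149% to 0.162% of all UMIs in the 37 °C libraries and 0.118% to 0.132% in the 39 °C libraries, with no overlap. That difference lay in the cytosolic enzymes, which went from 0.133% ± 0.0048 (SD, n = 4, as for every ± given without SE) to 0.1% ± 0.0051, whereas the mitochondrial enzymes held 0.0238% ± 0.001 and 0.0242% ± 0.00082. A gene was called when its edgeR quasi-likelihood test, on UMIs summed per library, gave a Benjamini-Hochberg adjusted p under 0.05 over all genes and its log2 fold change exceeded 0.5 in either direction. In all cells 11 of 34 synthetases (32.4%) fell and none rose by this rule, where 16.5% of all 15810 tested genes fell and 16.6% rose. By the adjusted p alone 21 were lower and 6 higher, the 6 with sizes under the limit. Of the 15810 tested genes 9803 passed it in either direction. The median log2 fold change was -0.57 for the cytosolic and -0.13 for the mitochondrial enzymes, and 0.0207 for all genes.

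Vars, the valyl-tRNA synthetase (chr17:35000987-35016322, plus strand, GRCm38), fell most. Its level was 69.4, 75.2, 78.4 and 90.3 CPM, with library totals scaled by TMM factors, in the 37 °C libraries and 26.2, 28.3, 26.7 and 26.6 in the 39 °C libraries. Every 37 °C library thus lay above every 39 °C library, by more than the spread within either group. The log2 fold change was -1.54 ± 0.067 (SE), with an adjusted p of 2.61e-13, and Vars was the 1 synthetase that also passed the stricter limits the study set for its bulk RNA-seq (adjusted p under 0.01, log2 over 1.5). Under 19 alternatives the value in all cells ran from -1.61 to -1.47, on both sides of that size limit.

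Aars, the alanyl-tRNA synthetase (chr8:111033144-111057664, plus strand), stood at 66.7, 78.6, 74.1 and 79.4 CPM at 37 °C and at 38.3, 37, 36.6 and 36.1 CPM at 39 °C. The groups did not overlap, and Aars fell by 1.02 ± 0.055 on the log2 scale (adjusted p = 5.93e-12). The other called cytosolic enzymes were those for isoleucine (Iars, log2 -0.75), methionine (Mars, -0.70), asparagine (Nars, -0.66), leucine (Lars, -0.62), tyrosine (Yars, -0.60), threonine (Tars, -0.59) and lysine (Kars, -0.57). In all, 9 of 17 cytosolic enzymes (52.9%) fell. The most abundant, the seryl enzyme Sars, had 163.8 ± 14.3 CPM at 37 °C and 145.7 ± 16.9 at 39 °C and was not called (log2 -0.17, adjusted p = 0.0463).

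Some cytosolic enzymes did not share the fall. The following were singled out after their values were seen. Cars, the cysteinyl-tRNA synthetase, measured 75.8, 70.8, 72 and 78.7 CPM at 37 °C and 102, 98.9, 95.6 and 97.9 CPM at 39 °C. Each 39 °C library was above each 37 °C library, although the log2 fold change of 0.41 ± 0.047 (adjusted p = 2.81e-07) stayed under the size limit. Wars (tryptophan) gave 17.53 ± 1.19 and 17.62 ± 0.476 CPM and Qars (glutamine) 58.01 ± 3.33 and 57.88 ± 1.76 CPM, with overlapping libraries and adjusted p of 0.937 and 0.97.

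**Figure D1:**
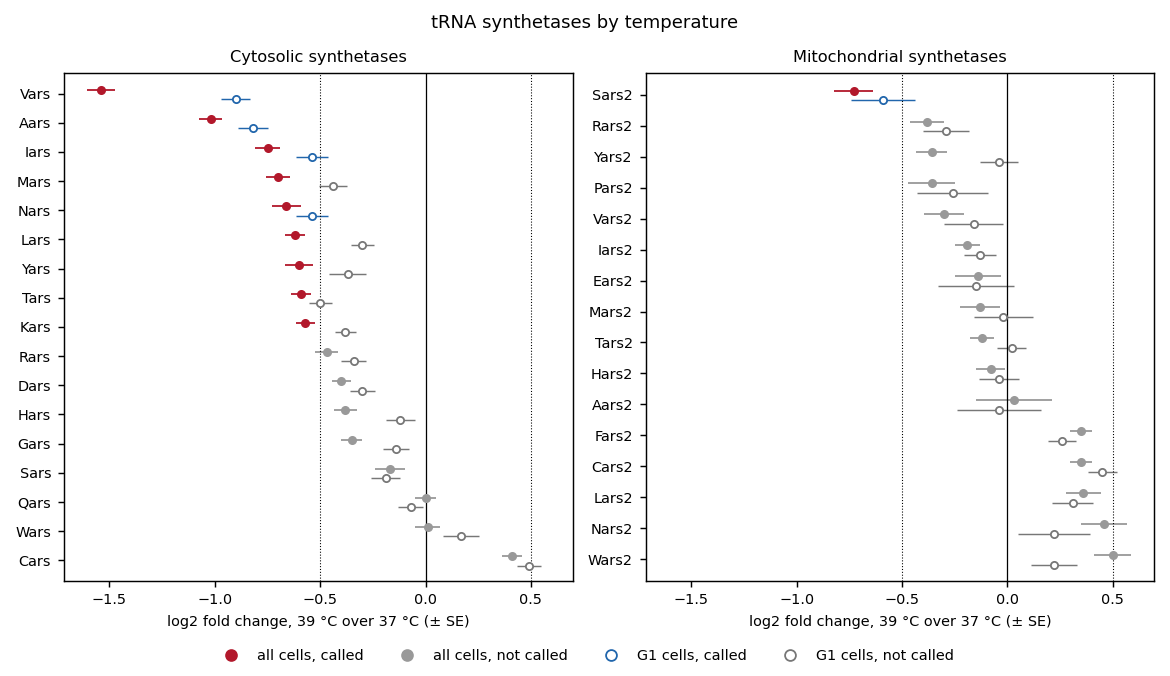
Log2 fold change (39 °C over 37 °C, bars show the SE from edgeR) of the cytosolic synthetases (left) and the mitochondrial synthetases reported here (right) in all cells (filled) and in G1 cells (open), colored where called, with dotted lines at the size limit of 0.5. Most cytosolic enzymes lie left of 0, from Vars at -1.54, while Cars lies at 0.41, and the mitochondrial enzymes spread on both sides of 0.

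The mitochondrial enzymes did not move as a class. Of the 17, 2 fell in all cells, Sars2 (serine) among them. For Sars2 the libraries gave 5.21 to 5.9 and 3.18 to 3.51 CPM (log2 -0.73 ± 0.094, adjusted p = 1.15e-06). Iars2, the most abundant of them with 35.89 ± 2.15 CPM at 37 °C, had a log2 fold change of -0.19 and was not called. At the other end, Wars2, Nars2, Lars2, Fars2 and Cars2, again singled out by their values, had log2 fold changes of 0.35 to 0.50 and adjusted p under 0.05, with none past the size limit. Wars2 (0.50 after rounding) was called at 0.56 without 37C replicate 2, at 0.53 without 39C replicate 2 and at 0.52 without 39C replicate 3. Nars2 (0.46) was called at 0.50 and 0.51 without those same 39C libraries.

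Among G1 cells fewer synthetases were called. Of the 34 synthetases 5 fell (14.7%) and none rose, against 9.66% lower and 11.8% higher among all 14720 tested genes. Vars had 42.07 ± 3.88 CPM in G1 cells at 37 °C and 22.46 ± 0.763 at 39 °C, a log2 fold change of -0.90 ± 0.069 (adjusted p = 3e-10). Aars had 63.43 ± 7.91 and 35.9 ± 1.77 CPM (-0.82 ± 0.071), and Sars2, Iars and Nars were called at -0.59, -0.54 and -0.54. The calls of Iars and Nars each rested on 1 library: without 37C replicate 4 Iars stood at -0.47, and without 39C replicate 4 Nars stood at -0.48, both under the size limit. Tars, at -0.50 with rounding, lay just outside the limit in G1 cells and was called in 12 of 19 alternatives. Where phases were assigned within each library rather than over all cells together, Vars in G1 cells was at -1.37.

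The same comparison within S cells and within G2M cells was added after the data had been seen. In S cells 11 of 34 synthetases fell and none rose, against 10.9% lower and 11.4% higher among all genes tested there. In G2M cells, of which the 39 °C libraries held few (28 to 165 cells), 12 fell and Cars2 rose (log2 0.58), against 9.13% and 8.86% of all genes. Cytosolic enzymes made up 9 of the 11 and 10 of the 12. Aars, Iars, Nars and Vars were called lower in each of the 3 phases, as was the mitochondrial Sars2.

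Vars also differed between phases at 37 °C. Comparing G2M with G1 cells of the same 37 °C libraries, with library as a block, Vars rose by 1.11 (log2, adjusted p = 6.56e-93). It was among the 2 synthetases called in this contrast, in which 9.26% of 14192 tested genes were higher and 7.69% lower in G2M. In CPM of each phase's own total, with no scaling factor, the libraries gave 36.5, 41.3, 46.2 and 45.6 for Vars in G1 and 82.2, 85.9, 87.4 and 99.7 in G2M cells at 37 °C. At 39 °C they gave 22.1, 23.3, 21.7 and 22.1 in G1 and 61.7, 56, 75.6 and 59.7 in G2M cells. Vars went from 42.4 ± 4.52 in G1 to 88.8 ± 7.57 in G2M at 37 °C and from 22.3 ± 0.664 to 63.2 ± 8.6 at 39 °C. At both temperatures each G2M value lay above each G1 value.

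**Figure D2:**
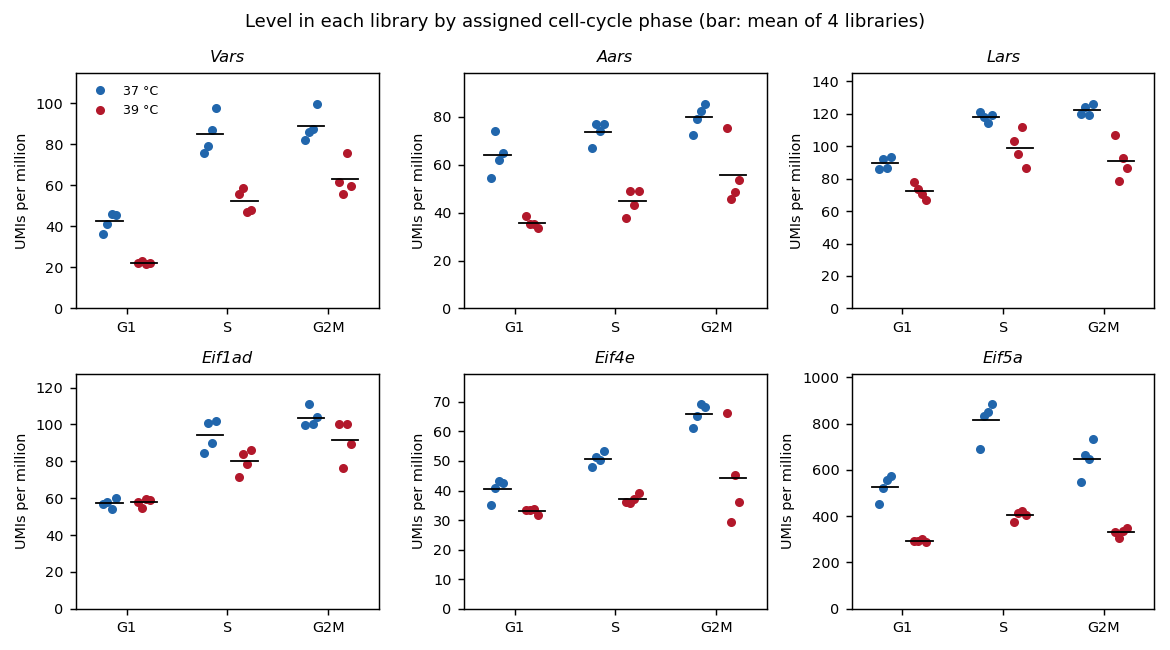
CPM of each phase's own total (linear axis from 0) in each library for 6 members by assigned phase, blue at 37 °C and red at 39 °C, with bars at the mean of 4 libraries. Vars and Eif5a lie lower at 39 °C within each phase, with the phases of Vars stepping up from G1 to G2M, whereas Eif1ad nearly coincides between temperatures in G1 and rises toward G2M.

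The promoters of several cytosolic synthetases held the letters of an element that ATF4 is known to bind. The C/EBP-ATF response element was searched as TGATGNAA on both strands of RefSeq promoter windows of 300 bases (GRCm38.p6, 250 bases before to 50 after the annotated start). Windows were found for 77 of the 103 members. The element stood in 5 of 10 cytosolic synthetases with a window (Aars, Gars, Iars, Tars and Yars), in 0 of 14 mitochondrial synthetases and in 2 of 53 translation factors (Eif2s3x and Eef2k), against 4.51% of all 27025 genes with a window. These 5 genes had log2 fold changes of -1.02, -0.35, -0.75, -0.59 and -0.60 in all cells. The 5 with a window and no match were at -0.70 (Mars), -0.57 (Kars), -0.40 (Dars), -0.17 (Sars) and 0.00 (Qars), so the ranges of matched and unmatched genes overlapped. Vars, Nars, Lars, Cars, Wars, Hars and Rars had no window and were not searched, among them the enzyme that fell most. A match is a string of letters and not a measured binding site. Positions count from the annotated RefSeq start, which for Aars lies downstream of the start of the gene span given above. The matches are shown, in capitals, within 30 bases of the gene's strand, to let the shared core be compared across the enzymes and with Asns, the asparagine synthetase gene, a known ATF4 target.
Aars, match at base 10 of the transcript, chr8:111033840-111033869 (+): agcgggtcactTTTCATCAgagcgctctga
Iars, match at base 8 of the transcript, chr13:49682126-49682155 (+): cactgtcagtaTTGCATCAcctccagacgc
Yars, match at base 4 of the transcript, chr4:129189895-129189924 (+): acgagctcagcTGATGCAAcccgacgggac
Asns, match 23 bases before the start, chr6:7693214-7693243 (-): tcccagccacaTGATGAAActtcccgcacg

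In Gars and Tars the match lay before the start, and the 150 bases before it are given to show its setting near the start site.
Gars, chr6:55037851-55038000 (+): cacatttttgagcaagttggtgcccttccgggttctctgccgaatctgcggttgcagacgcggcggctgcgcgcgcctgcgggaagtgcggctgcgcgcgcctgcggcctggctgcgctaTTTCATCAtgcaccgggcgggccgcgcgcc
Tars, chr15:11399659-11399808 (-): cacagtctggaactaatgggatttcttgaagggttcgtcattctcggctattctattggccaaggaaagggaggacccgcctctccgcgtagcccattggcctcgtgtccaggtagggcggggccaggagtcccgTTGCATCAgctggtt
The core TTGCATCA occurred in Iars and Tars, and its reverse complement TGATGCAA in Yars. Gars and the Aars match shown both read TTTCATCA, and Asns its reverse complement TGATGAAA.

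Other genes of the pathway are given by whole lists. The first held 8 measured genes outside the symbol rule, synthetases and complex partners together with Ptrh2 and Dtd1, which are neither. Of these 8, none rose and 3 fell in all cells, where 16.5% of all genes fell. The 3 were Eprs (glutamate and proline, log2 -0.66), the scaffold Aimp2 (-0.73) and the peptidyl-tRNA hydrolase Ptrh2 (-0.82). The 2 subunits of the phenylalanine enzyme, Farsa and Farsb, were at -0.33 and -0.46 and were not called. In G1 cells 2 of the 8 fell, Eprs (-0.51) and Ptrh2 (-0.61), where 9.66% of all genes fell. Aimp2, at -0.32 in G1 cells, was not called there. Of the 22 genes listed as ATF4 and its targets outside the 103 members, 12 fell and 7 rose, where 16.5% of all genes fell and 16.6% rose, and the median was -0.70. Those that fell included genes of serine, folate and asparagine synthesis (Phgdh -3.13, Mthfd2 -2.81, Psat1 -2.73, Asns -1.50), and those that rose included the stress regulators Ddit3 (1.05) and Sesn2 (0.68) and the amino acid transporter subunit Slc3a2 (0.61). Atf4 itself was at -0.42 (adjusted p = 1.75e-06), under the size limit. In G1 cells 12 of the 22 fell and 5 rose, where 9.66% of all genes fell and 11.8% rose. Members of the list thus moved in both directions.

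Mars and Ddit3 overlap on opposite strands of chromosome 10. Droplet 3' counting keeps the strand, and the 2 genes were measured in opposite directions (Mars -0.70, Ddit3 1.05). Aars overlaps Exosc6 on the same strand, where reads that fit both genes are not counted by the counting tool.

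The translation factors did not move together. As a class they took 2.1% to 2.26% of all UMIs at 37 °C and 2.25% to 2.29% at 39 °C. In all cells 11 of 65 tested factors fell (16.9%, against 16.5% of all genes) and 3 rose (4.62%, against 16.6%), so in all cells the share that fell was close to that of all genes, and the median was -0.15. Libraries of the temperatures did not overlap for 45 of 65 factors and for 25 of 34 synthetases, where they did not overlap for 56.7% of all genes. In G1 cells 5 factors fell (7.69%, against 9.66% of all genes) and 3 rose (4.62%, against 11.8%). In S cells 13 of 65 fell and 2 rose, where 10.9% of all genes fell and 11.4% rose. In G2M cells 14 of 64 fell and 2 rose, where 9.13% of all genes fell and 8.86% rose. The share that fell was thus above that of all genes within S and G2M cells and below it within G1 cells.

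**Figure D3:**
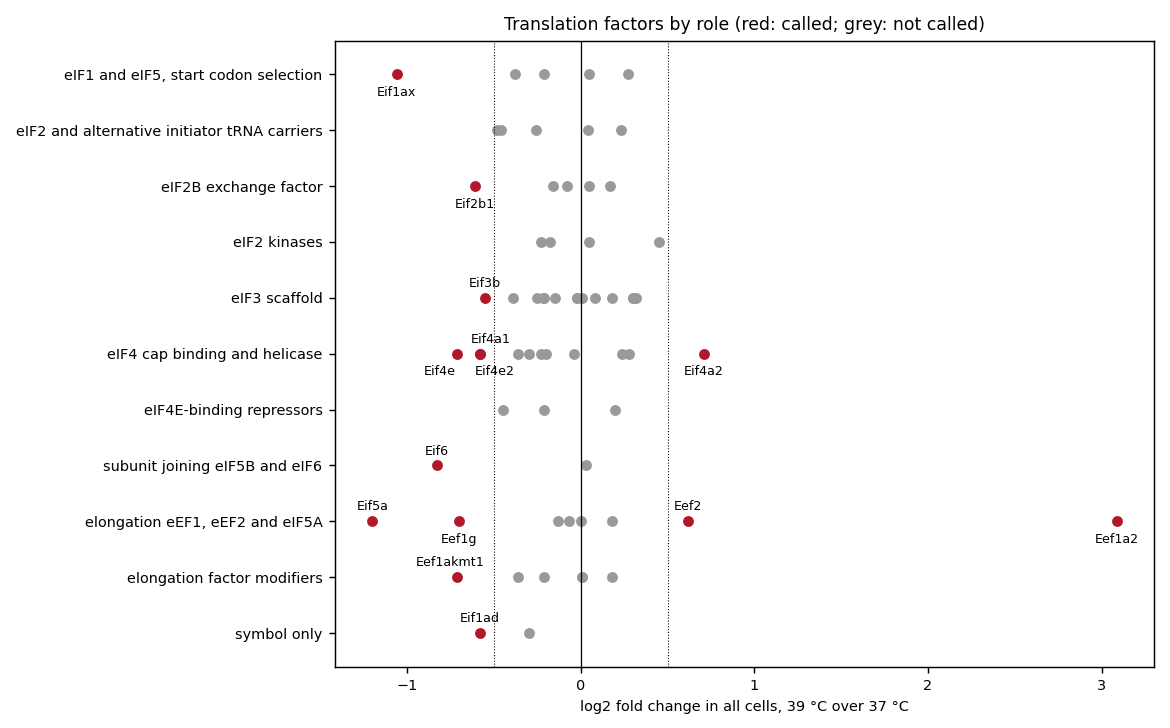
Log2 fold change in all cells (39 °C over 37 °C) of the 65 tested translation factors, 1 point a gene, by role, with called genes in red and named and dotted lines at the size limit of 0.5. The 11 that fell come from 8 of the 11 role groups, Eef1a2 lies alone at 3.09, and elongation holds members on both sides.

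Among the start codon factors, Eif1ax, which encodes the eIF1A that scans with the small subunit, fell. Its libraries gave 209, 238, 228 and 238 CPM at 37 °C and 107, 109, 113 and 109 CPM at 39 °C, with no overlap, for a log2 fold change of -1.06 ± 0.05 in all cells (adjusted p = 8.17e-13) and -0.77 ± 0.051 in G1 cells. Its near relative Eif1a was at -0.38 and not called. Eif1, which guards start codon choice and is the most abundant of these genes, had 2006 ± 62.2 CPM at 37 °C and 2411 ± 138 at 39 °C (log2 0.27, adjusted p = 0.000576), under the size limit.

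No subunit of eIF2 was called in all cells or in G1 cells, although Eif2s1 (-0.48) and Eif2s2 (-0.46) came close to the size limit in all cells. Eif2s2, the most abundant, had 371, 418, 357 and 357 CPM at 37 °C and 300, 266, 274 and 251 CPM at 39 °C, which do not overlap. Without 39C replicate 1 both were called, at -0.51 and -0.52, and without 37C replicate 1 Eif2s1 was called at -0.53. Within phases Eif2s2 fell in S cells (-0.73, adjusted p = 1.84e-10) and in G2M cells (-0.69, adjusted p = 7.76e-09), and was at -0.37 in G1 cells. Of the 5 subunits of eIF2B, which reloads eIF2 with GTP, Eif2b1 fell (27.9 ± 2.26 to 18.23 ± 0.514 CPM, log2 -0.61 ± 0.06, adjusted p = 3.39e-08), and the other 4 lay between -0.16 and 0.17. Within phases Eif2b1 fell in G2M cells (-0.68) and was at -0.28 in G1 and -0.47 in S cells, not called.

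Of the kinases that phosphorylate eIF2, none was called in all cells. Eif2ak3, the endoplasmic reticulum kinase PERK, had 5.14, 4.38, 3.58 and 3.93 CPM at 37 °C and 5.9, 5.72, 4.99 and 6.71 CPM at 39 °C. The highest 37 °C library was above the lowest 39 °C library, and the log2 fold change was 0.45 ± 0.12 (SE, adjusted p = 0.00262). Without 37C replicate 1 or without 39C replicate 3 it was called, at 0.53 and 0.52. In G1 cells it was called at 0.55 ± 0.16 (adjusted p = 0.00614), but without 37C replicate 3 or without 39C replicate 4 it stood at 0.49 and 0.47. Eif2ak4, the sensor of uncharged tRNA, was at -0.23 (14.68 ± 1.26 to 12.5 ± 0.594 CPM), the interferon-induced kinase Eif2ak2 at -0.18 and the heme-regulated kinase Eif2ak1 at 0.05.

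The subunits of eIF3 separated from one another although they work as 1 complex. They were singled out after their values were seen, apart from Eif3h. Eif3b, a subunit of the core of the complex, fell from 177.2 ± 9.18 to 121 ± 2.3 CPM (log2 -0.55 ± 0.047, adjusted p = 4.95e-09), and within G1, S and G2M cells was at -0.29, -0.46 and -0.42, not called. Eif3c, Eif3i and Eif3a were at -0.39, -0.25 and -0.21. By contrast Eif3f, Eif3h and Eif3m, which sit next to each other in the complex, were at 0.32, 0.30 and 0.30. Eif3h gave 732, 761, 729 and 779 CPM at 37 °C and 882, 939, 921 and 946 CPM at 39 °C, with no overlap between temperatures. These positive differences had adjusted p from 5.17e-06 to 4.17e-05 and remained under the size limit. Eif3i was called lower in S (-0.52) and G2M cells (-0.51), and Eif3j1 (-0.55) and Eif3j2 (-0.67) in S cells. The Eif3j1 libraries overlapped in S cells, with 57.4 to 93.3 CPM at 37 °C and 44.4 to 79.3 at 39 °C, unscaled. Summed over the complex the share of UMIs was 0.383% ± 0.0067 at 37 °C and 0.399% ± 0.00069 at 39 °C.

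**Figure D4:**
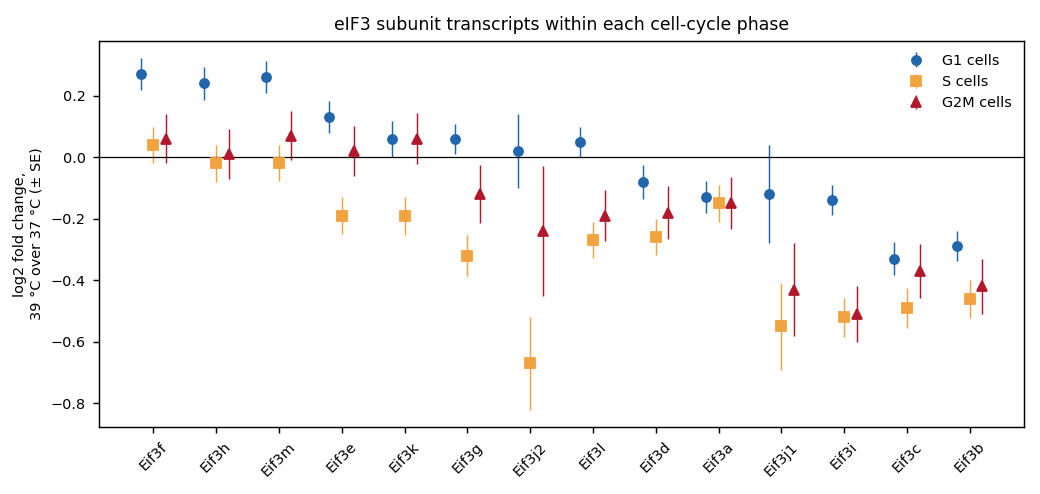
Log2 fold change (39 °C over 37 °C, bars show the SE) of the 14 eIF3 subunit genes within G1 (circles), S (squares) and G2M cells (triangles), ordered by their difference in all cells. Eif3f, Eif3h and Eif3m lie at 0.24 to 0.27 in G1 and near 0 in S and G2M cells, while Eif3b and Eif3c lie below 0 in each phase.

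The helicase genes of eIF4A, which unwind the mRNA leader, moved in opposite directions. Eif4a1 (chr11:69666936-69672423, minus strand) had 490, 533, 552 and 578 CPM at 37 °C and 357, 367, 360 and 359 CPM at 39 °C. Eif4a2 (chr16:23107444-23114136, plus strand) had 153, 146, 156 and 149 CPM at 37 °C and 253, 241, 243 and 255 CPM at 39 °C. In neither gene did the temperatures overlap. Eif4a1 fell by 0.58 ± 0.054 on the log2 scale (adjusted p = 1.53e-08), and Eif4a2 rose by 0.71 ± 0.045 (adjusted p = 5.91e-11). In S cells their log2 fold changes were -0.72 and 0.69 and in G2M cells -0.54 and 0.65, all called. In G1 cells they were -0.42 and 0.50. The G1 value of Eif4a2 lay on the size limit, and it was called in 8 of 19 alternatives. Eif4a3, which serves the exon junction complex rather than initiation, was at -0.30 and not called.

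The cap-binding protein gene Eif4e fell in all cells, from 50.3, 55.1, 55.3 and 58.1 CPM to 33.5, 33.5, 34.4 and 32.5 CPM, with no overlap (log2 -0.71 ± 0.05, adjusted p = 3.39e-10). Within phases it fell in S cells (-0.55, adjusted p = 1.34e-06) and in G2M cells (-0.77, adjusted p = 5.09e-06), and in G1 cells it was at -0.26 and not called. Eif4e2, the cap-binding relative that represses translation, fell in all cells (-0.58) and in G1 cells (-0.55 ± 0.052, adjusted p = 8.55e-09). Eif4e3 was near the detection floor, with 55 UMIs at 37 °C and 47 at 39 °C. It overlaps Gm20696 on the same strand, so reads that fit both genes may be missing from these counts. The scaffolds Eif4g1, Eif4g2 and Eif4g3 were at -0.36, -0.20 and 0.28, none of them called. Of the repressors that hold eIF4E, Eif4ebp1 had 301.6 ± 18.5 CPM at 37 °C and 221 ± 9.37 at 39 °C (-0.45). It was called in S cells at -0.50 after rounding and in G2M cells at -0.55. Eif4ebp2 had 73.34 ± 2.7 and 84.27 ± 4.42 CPM (0.20).

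Eif6, which keeps the large ribosomal subunit from joining too early and takes part in its maturation, fell in all cells and in G1 cells. It had 398, 427, 410 and 448 CPM at 37 °C and 228, 248, 239 and 229 CPM at 39 °C (chr2:155819832-155826925, minus strand). All 37 °C libraries lay above all 39 °C libraries, and Eif6 fell by 0.83 ± 0.051 (SE) on the log2 scale (adjusted p = 4.12e-11). Among G1 cells alone it fell by 0.63 ± 0.05. Eif5b, the GTPase of subunit joining, had overlapping libraries (282.7 ± 19.2 and 288.7 ± 37 CPM).

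The widest spread lay within elongation. Eif5a (chr11:69916714-69921958, minus strand) fell by more than any other factor, with 586, 720, 714 and 780 CPM at 37 °C and 294, 306, 314 and 301 CPM at 39 °C. The lowest 37 °C library was well above the highest 39 °C library. Its log2 fold change was -1.20 ± 0.069 in all cells (adjusted p = 1.4e-11), -0.82 ± 0.06 in G1, -1.10 in S and -1.05 in G2M cells. The paralogue Eif5a2 was rare, with 5.832 ± 0.429 and 5.593 ± 0.883 CPM, and was not called. The enzymes that make the hypusine residue of eIF5A, Dhps and Dohh, were at -0.11 and -0.08, neither called.

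Eef2, the translocase (chr10:81176631-81182498, plus strand), rose in all cells, from 1660, 1580, 1640 and 1810 CPM to 2500, 2640, 2510 and 2590 CPM. No library overlapped, and the log2 fold change was 0.62 ± 0.058 (adjusted p = 1.73e-08). In G1 cells it was 0.48 ± 0.06 (adjusted p = 5.77e-07), just under the size limit, and without 37C replicate 4 it was called at 0.53. In S cells it was at 0.29 and in G2M cells at 0.47, neither called. Its regulators moved little: the kinase Eef2k was at 0.18 and the methyltransferase Eef2kmt at 0.01.

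Of the eEF1 genes, Eef1a1 was the most abundant member by far, at 5410, 5580, 5730 and 5820 CPM at 37 °C and 6510, 6300, 6240 and 6520 CPM at 39 °C. The groups did not overlap, but the log2 fold change was 0.18 (adjusted p = 0.011) and not called. Among the subunits of its exchange factor, Eef1g fell from 774.4 ± 69.6 to 476.8 ± 18.8 CPM (-0.70 ± 0.061, adjusted p = 6.65e-09), while Eef1b2 (-0.13) and Eef1d (0.00) did not pass the test. Within phases Eef1g fell in S (-0.76) and G2M cells (-0.54), and in G1 cells it was at -0.45 and not called. Eef1akmt1, a lysine methyltransferase of eEF1A, fell from 79.53 ± 3.13 to 48.53 ± 1.97 CPM, by 0.71 on the log2 scale in all cells and by 0.67 in G1 cells.

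Eef1a2, the form of eEF1A that replaces Eef1a1 in mature neurons and muscle, rose by 3.09 ± 0.29 on the log2 scale (adjusted p = 1.54e-08), the largest change of any member, and passed the stricter limits as well. It was nevertheless rare. At 37 °C the libraries held 15, 5, 3 and 10 UMIs, and at 39 °C 47, 50, 67 and 86, or 0.291 ± 0.18 and 2.562 ± 0.595 CPM. Each 39 °C library was above each 37 °C library. At 39 °C a UMI was seen in 27 of 985, 44 of 2743, 43 of 2579 and 63 of 3494 cells, with up to 4 in 1 cell. The shift was also called within G1, S and G2M cells (2.82, 3.85 and 3.91). Relative to Eef1a1, with 6392 ± 143 CPM at 39 °C, it stayed a minor transcript in CPM, which count molecules and are not scaled by length. Of 7 neuron markers Dcx, Snap25, Syt1 and Rbfox3 had at most 18 UMIs each in all libraries. The other 3 fell in all cells, the summed list going from between 165 and 193 CPM to between 79.3 and 97.7. In G1 cells Map2 (-1.03) and Stmn2 (-1.25) fell, and Tubb3 was at 0.38, not called.

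**Figure D5:**
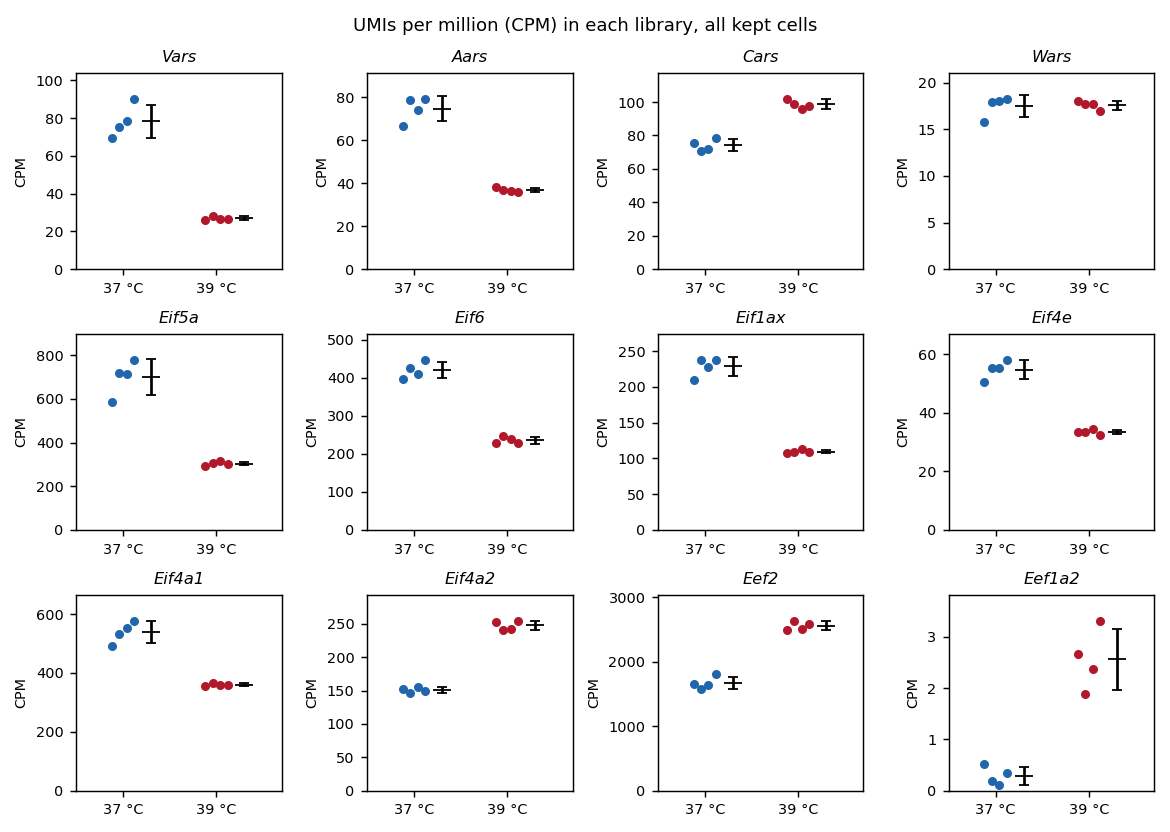
CPM (linear axes from 0) of 12 members in each library, all kept cells, blue at 37 °C and red at 39 °C, with the mean and SD of 4 libraries beside the points. Vars, Aars, Eif5a, Eif6, Eif1ax, Eif4e and Eif4a1 lie lower at 39 °C, Cars, Eif4a2, Eef2 and Eef1a2 lie higher, and Wars overlaps.

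Few factors passed the size limit between phases. Between G2M and G1 cells at 37 °C, Eif1ad rose (log2 0.89, adjusted p = 8.02e-74), Eif4e rose (0.75, adjusted p = 2.3e-37) and Eef2k fell (-0.51, adjusted p = 1.95e-05). The other 62 tested factors were not called, so 3.08% were higher and 1.54% lower, against 9.26% and 7.69% of all genes. By the adjusted p alone 38 of 65 differed, 23 higher and 15 lower, as did 6351 of the 14192 genes tested. Eif1ad measured 91.01 ± 6.76 CPM at 37 °C and 60.84 ± 2.41 at 39 °C in all cells, a fall of 0.58 on the log2 scale, but 57 ± 2.76 and 58.12 ± 2.14 in G1 cells, where the log2 fold change was 0.03 (adjusted p = 0.709). In S and G2M cells it was at -0.32 and -0.28, not called. Eif1ad runs opposite to Banf1, which it overlaps.

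Whether the temperature difference itself depended on phase was tested as an interaction of cycling (S and G2M) against G1 cells. It was called for 1 of 99 tested members, Eif3j2 (-0.53, adjusted p = 0.00378), against 3.93% of all 14745 genes. By the adjusted p alone, which 2402 of the 14745 genes passed in either direction, 33 of 65 factors had a negative interaction (Eif1 -0.30, Eef1d -0.42, Eif4e -0.43), and 1, Eif4a2 (0.16), had a positive one. For eIF3 the sign was negative in 14 of 14 subunits. The median interaction of all genes was -0.0605. The cycling class pooled S and G2M cells in unlike proportions. At 37 °C 38.25% to 43.59% of kept cells were S and 33.09% to 35.36% G2M. At 39 °C 10.97% to 12.28% were S and 2.843% to 4.722% G2M. The interaction thus also compares mixtures of phases, and the part of this in its values was not tested. Eif3j2 and Eif3j1 are near-identical copies, between which reads may be split, so the values of both are uncertain, and Eif3j2 was called in none of the other scalings. Counts of Eef1a1, Eif5a and Eif4a1, which have processed copies in the genome, share that limit.

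Other factors of translation outside the symbol rule were also measured. A list of 23 other cytosolic factors held release, recycling and poly(A)-binding factors and, among others, the modifying enzymes Dhps and Dohh. Of these 23, 2 fell in all cells, the release factor Gspt1 (-0.63) and the rescue factor Pelo (-0.76, on 147 UMIs), and none rose. Of 14 mitochondrial factors, 2 fell, Guf1 (-0.73) and the amidotransferase subunit Gatc (-0.75), and none rose. In both lists the share that fell in all cells was below the 16.5% of all genes. Among G1 cells 1 of 22 and 2 of 14 fell and none rose, where 9.66% of all genes fell and 11.8% rose. Gspt1, at -0.40 in G1 cells, was not called there. Cytosolic ribosomal protein genes took 17.7% ± 0.62 and 17.9% ± 0.69 of UMIs at 37 °C and 39 °C.

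The classes were also compared from cell to cell. Among G1 cells thinned to 5000 UMIs, which left out 249 shallower cells at 37 °C and 1382 at 39 °C, a cell held on average 4.72 to 6.31 UMIs of cytosolic synthetases. Spearman's correlation of that sum with the ATF4 target sum was 0.11 to 0.18 in the 37 °C libraries and 0.00 to 0.04 in the 39 °C libraries (377 to 2066 cells per library). Without Phgdh, Psat1, Shmt2, Mthfd2 and Asns in the list it was 0.02 to 0.10 and -0.01 to 0.04. Counts this sparse keep correlations low, so these are descriptions only. The eIF3 sum, at 19 to 20.4 UMIs per cell, correlated with the elongation factor sum at 0.12 to 0.26.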

How the data were processed

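Counts were the deposited gene by cell UMI matrices, which the authors made with Cell Ranger 3.0.1 against mm10, 1 per library. The study's limits were applied to cells (200 to 6000 genes, at most 15% mitochondrial UMIs) and no doublet caller was run. Phases were assigned with Seurat 5.3.0, with 42 of 43 S and 52 of 54 G2M genes found. Raw UMIs were summed per library, and per phase, and genes averaging 1 or more counts per library were fitted in R 4.3.3 with edgeR 4.0.16 (TMM, quasi-likelihood test, Benjamini-Hochberg over all genes), after tests on simulated data. DESeq2 1.42.0, other scalings, filters, cell limits, thinning, a replicate block and leaving out each library were alternatives, and S or G2M cells alone were added after seeing the data. Floors and counts cover counting error only. Named were the called members with the largest fold (up to 12 per class, at least 5 CPM in the higher group, so Eef1a2 enters as a paralogue), the most abundant of each role and paralogue sets. Others were chosen after their values were seen. 1 synthetase and 1 promoter match are not reported here. Members and lists were chosen with earlier results of these data known.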

Additional observations from a re-analysis of the deposited data

Results flagged for a closer look

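Eif1 in library 1 at 39 °C measured 2200 CPM, where the other 3 libraries of that temperature measured 2480 each after rounding, and it was marked as a sample far from its group. Eif5a2 in library 2 at 39 °C measured 4.28 CPM, where the other 3 lay between 5.91 and 6.17. Both come from 84 groups of 4 libraries examined, of which chance marks about 1 in 20. The temperature difference of Eif3j2 was lower in cycling than in G1 cells by a test of the difference itself. The interaction was -0.53 on the log2 scale, with S and G2M cells pooled in proportions that differed between temperatures.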

How the results depend on the processing

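The counts of factors and synthetases that fell, in all cells and in G1 cells, stayed within 1.5 times the reported value under every alternative run. The synthetases higher in all cells, 0 as reported, numbered 1 under upper quartile factors, library totals alone, the replicate block, thinning and in G2M cells alone, 2 under the limit of 5000 genes, and 0 to 2 with a library left out. In G1 cells they numbered 1 with no filter on low counts, the 10% mitochondrial limit, the limit of 5000 genes and phases assigned within each library, and 0 to 1 with a library left out. The factors higher in G1 cells numbered 1 after thinning and 1 to 4 with a library left out (1 without 37C replicate 3 or 39C replicate 4). The synthetases called between phases numbered 4 under upper quartile factors and library totals alone, and 2 to 4 with a library left out. The members with an interaction numbered 0 under RLE factors, upper quartile factors and library totals alone, and 1 to 3 with a library left out (3 without 39C replicate 1). The causes were not tested.

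Of 1595 values of named members under alternatives, 1526 kept direction and side of the limits, 17 lost a call, 20 gained one and 32 changed sign, all of the last in members not called. In all cells these were Eif4e3 (0.04 under the 10% mitochondrial limit, -0.20 to 0.18 with a library left out) and Eif5a2 (0 after thinning, -0.13 to 0.05 with a library left out). In G1 cells they were Eif1ad (0 under upper quartile factors, -0.19 with phases within each library, 0 to 0.05 with a library left out), Eif2ak1 (0 with phases within each library), Eif2ak2 (-0.08 to 0.03 with a library left out) and Eif2b2 (0 with no filter, 0.02 under the 10% limit, 0.11 with phases within each library, -0.06 to 0.02 with a library left out). Eif4e3 in G1 cells was -0.13 under the limit of 5000 genes and -0.34 after thinning. Eif5a2 in G1 cells was -0.02 under RLE factors, library totals alone, filterByExpr and DESeq2, -0.03 under upper quartile factors, -0.01 under the 10% limit, -0.04 under the limit of 5000 genes and -0.05 to 0.11 with a library left out.

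Libraries with the same number deviated together with correlations of -0.11, -0.093, -0.08 and 0.22, so the numbers were not taken to pair them. The replicate block moved the synthetases called higher from 0 to 1 (Wars2).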
